A study of Mus musculus with 24 samples.

Results

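Ischemic heart tissue that had been conditioned was compared with the remote, non-ischemic region of infarcted hearts, to ask what still separated them. The samples were chosen by the RNA in their second channel, and all 24 of the 24 arrays of the series entered. Conditioned tissue took 18 arrays and remote tissue 6, which made 9 conditioned and 3 remote replicates once the arrays of opposite dye labelling were averaged. All mice were C57BL/6, were anesthetized, and had 40 min of coronary occlusion followed by 60 min of reperfusion (IR). The ischemic region was taken from hearts given 3 short cycles, each of 1 min occluded and 1 min open, at 10 min before the occlusion (PreC), at 1 min of reperfusion (PostC) or at 30 min of reperfusion (Post30). The remote tissue was the non-ischemic region of hearts that had IR and no conditioning (NonIschemic). The other channel of every array carried RNA from the ischemic region of unconditioned IR hearts, the common partner.

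Brief, harmless occlusions before or just after a long one make heart muscle more resistant to reperfusion injury. Preconditioning and postconditioning are known to act through receptors at the cell surface, kinases that promote survival and the mitochondrial permeability pore. Remote myocardium keeps its blood supply, but it is stretched and exposed to circulating signals of an injured heart, and it is not the same as healthy tissue.

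Conditioned and remote tissue differed here in both region and treatment, so a difference between them cannot be assigned to occlusion, to the cycles or to a standing difference between regions; these cannot be told apart. In bulk tissue, fewer cells of a type and less RNA per cell cannot be told apart either. The labels do not say whether a replicate number stands for 1 heart or a pool, so each p-value refers to the spread among these samples alone, and that spread may be technical. The files give probe IDs without gene names, and 0 of 16463 probe IDs were found in the gene table used. Gene groups and cell type markers could therefore not be read, and the labelled tissue could not be checked against its markers.

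Each array held 17664 spots. In the channel of the group's RNA, 29.5% to 43.4% of the mouse probes exceeded the empty spots on the 18 conditioned arrays (mean 36.7%), and 29.3% to 45.6% did on the 6 NonIschemic arrays (mean 38.5%). Values are log2 ratios of the group's RNA over IR RNA, and differences are conditioned minus NonIschemic within the same replicate number, so that IR RNA shared within a number cancels. The direction is likely and not settled: it rests on file channel 2 being the labels' channel 2, and the opposite numbering throughout would turn all signs here. The channel with the higher background was the Cy3 channel on 24 of 24 arrays under this reading. The ratio controls 1RC and 3RC lay below 0 on 24 of 24 arrays, and 2RC and 4RC lay above 0 on as many.

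Whether the numbers pair the tissues was checked on the deviations of 16309 probes from their group means. Conditioned and NonIschemic samples of the same number correlated with r from 0.162 to 0.379 in numbers 1 and 2, and with r from 0.0096 to 0.078 in number 3. The value was above 0.1 in 6 of 9 pairs, and the own number gave the highest r in 8 of 9. With NonIschemic samples of another number r reached 0.201 (Post30 replicate 1, own 0.247). For PreC replicate 3 another number gave 0.064, above its own 0.0096. In the IR channel itself, arrays of the same number and dye labelling deviated together with a mean r of 0.366 (IR RNA in Cy5) and 0.161 (IR RNA in Cy3). Single pairs ran from 0.147 to 0.626 and from -0.045 to 0.355. A shared IR extract and a shared day of handling cannot be told apart from this.

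Over the protocols together, 1 of 16454 probes separated conditioned from remote tissue (0.00608%) with limma and Benjamini-Hochberg adjustment at 0.05. It was lower in conditioned tissue, and 0 were higher. An unadjusted p under 0.05 was reached by 1392 probes (8.46%), 708 higher (4.3%) and 684 lower (4.16%) in conditioned tissue. A list without any difference would hold 5% on average. Without the replicate block, 0 probes passed in the pooled comparison or in any protocol, and 992 had an unadjusted p under 0.05 in the pooled one. The calls below thus rest on subtracting within replicate numbers.

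After loess, which centres each array on its mouse probes, the differences were small for most of the array. A shift shared by all probes would not show here. Across all tested probes the median absolute difference was 0.054 on the log2 scale, and the central 98% lay between -0.23 and 0.28. The 95% interval of a difference reached a median of 0.14 to either side. It lay wholly within 1.5-fold for 16287 probes, and for 97.8% of the 6346 tested probes that were detected on most arrays of a side. The offset added to intensities compresses differences, most of all in dim probes, and detected probes are not exempt. The intervals therefore bound the processed values and not true differences, least of all for undetected probes.

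**Figure D1:**
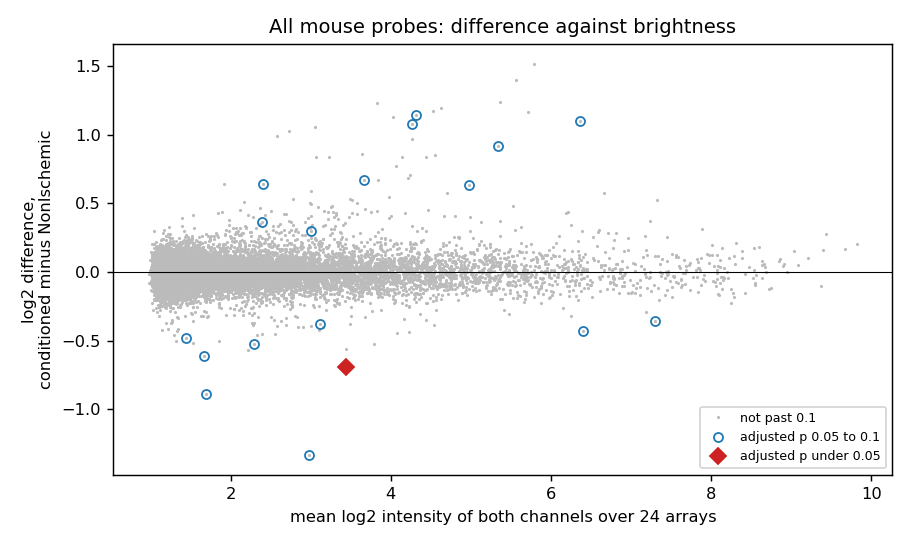
Difference between conditioned and NonIschemic tissue (vertical axis, log2) for all tested mouse probes against their mean log2 intensity over 24 arrays (horizontal axis). The diamond is the 1 probe with an adjusted p under 0.05 and the circles are the 17 with an adjusted p between 0.05 and 0.1. Of the 35 probes with a difference of 1.5-fold or more, 31 lie above 0.

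The probe that passed, Mm::M200004830, was lower in conditioned tissue by a log2 difference of -0.69 (SE 0.091, adjusted p = 0.0364 with limma), or 1.62-fold. Its log2 ratios over IR were -0.01, 0.44 and 0.06 in PreC, -0.07, 0.64 and -0.12 in PostC, and -0.86, 0.24 and -0.55 in Post30, for replicates 1, 2 and 3. NonIschemic tissue gave 0.18, 1.28 and 0.54 in the same order. The ranges of the 9 conditioned and 3 NonIschemic ratios overlapped. The conditioned value was the lower one in 9 of 9 comparisons within a number, which the rule for naming probes required. These 9 comparisons share 3 NonIschemic samples. Replicate 2 was the highest of its group in all 4 groups, which the subtraction within numbers removes.

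Its mean ratio over IR was 0.16 ± 0.24 in PreC, 0.15 ± 0.43 in PostC and -0.39 ± 0.57 in Post30, against 0.67 ± 0.56 in NonIschemic tissue (SD, n = 3 each). By protocol the difference was -0.50 in PreC, -0.52 in PostC and -1.06 in Post30 (SE 0.11 each), and only Post30 passed alone (adjusted p = 0.00261 with limma). The protocols did not differ from each other past the threshold (adjusted p = 0.128, limma F-test). Without the replicate block its pooled adjusted p was 0.806, the highest of all alternatives. The lowest, 2.3e-09, came from scaling to control probes, which shifts all probes together and made 13729 pass. Apart from that scaling the lowest adjusted p with limma was 0.00207, with the 3 within-number differences. It did not pass without NonIschemic replicate 1, 2 or 3 (0.0740, 0.264 and 0.101) or without Post30 replicate 1 or 3 (0.0663 and 0.107).

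The other 3 probes with an ID here were picked by a fixed rule, as the next by p with the same sign in all 9 differences within a number, and none of them passed. Mm::M200014539 had the lowest difference of all probes, -1.33 (SE 0.21, adjusted p = 0.0552 with limma), or 2.52-fold lower in conditioned tissue. Its ratios over IR were -2.09, -0.02 and -0.26 in PreC, -2.04, 0.01 and -0.41 in PostC, and -1.98, 0.04 and -0.28 in Post30. In NonIschemic tissue they were -0.53, 2.18 and 0.00. The 3 protocols were nearly alike within each number, while the numbers were far apart.

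Averaged over protocols, that probe differed from NonIschemic by -1.51 in number 1, by -2.17 in number 2 and by -0.32 in number 3. The 3 differences of a number share 1 NonIschemic sample, so its 9 of 9 lower values rest on 3 remote samples.

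Mm::M200000449 was higher in conditioned tissue by 1.10 (SE 0.17, adjusted p = 0.0534 with limma), or 2.14-fold. Its ratios over IR were 0.29, -0.50 and -0.83 in PreC, 0.40, -0.94 and 0.32 in PostC, and 0.34, -0.77 and -0.01 in Post30. NonIschemic tissue gave -0.44, -1.86 and -1.57. The groups overlapped, since NonIschemic replicate 1 lay above 4 conditioned values.

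Mm::M200004035 was higher by 0.92 (SE 0.14, adjusted p = 0.0534 with limma), or 1.89-fold. It gave 0.07, -0.19 and -0.38 in PreC, 0.40, -0.21 and 0.10 in PostC, and 0.10, -0.59 and -0.10 in Post30, against -0.65, -1.81 and -0.57 in NonIschemic tissue. Post30 replicate 2 was the only conditioned value within the NonIschemic range. The difference was 0.84 in number 1, 1.48 in number 2 and 0.44 in number 3.

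All 4 probes were detected on 18 of 18 conditioned and 6 of 6 NonIschemic arrays. The difference had the same sign in each dye labelling: -0.61 and -0.78 for Mm::M200004830, -1.30 and -1.37 for Mm::M200014539, 1.06 and 1.14 for Mm::M200000449, and 0.88 and 0.97 for Mm::M200004035, with the group in Cy5 and in Cy3. Both labellings carry the same extracts, and the probes were chosen by their mean. None of the 4 passed in Cy5 alone (adjusted p = 0.0530 with limma) or in Cy3 alone (0.202 to 0.207).

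**Figure D2:**
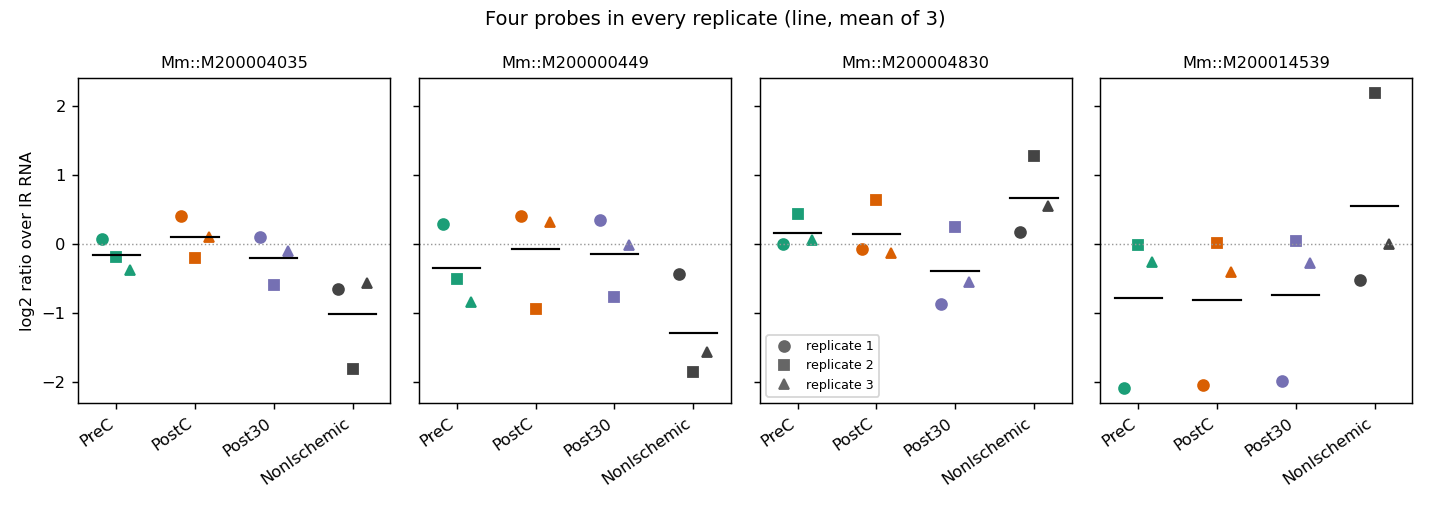
Log2 ratio over IR RNA (vertical axis) of 4 probes in PreC, PostC, Post30 and NonIschemic tissue (horizontal axis), each point the mean of 2 dye orientations of a replicate and each line the mean of 3. The NonIschemic mean lies below the others at -1.01 and -1.29 in the 2 panels on the left, and above them at 0.67 and 0.55 in the 2 on the right.

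At an adjusted p under 0.1 the pooled comparison held 18 probes (0.109% of those tested), 9 higher and 9 lower in conditioned tissue. Their absolute differences ran from 0.30 to 1.33 with a median of 0.64. In conditioned tissue 3 of the 18 were above empty spots on 0 of 18 arrays, so their level there is only a bound. Without the 4 probes not detected on most arrays of both tissues, the median was 0.65. Of the 18, 17 kept 1 sign in all 9 differences within a number, and 1 had no overlap between its 9 conditioned and 3 NonIschemic ratios. The 18 were chosen by these same differences, which favours 1 sign, and the 9 differences share 3 NonIschemic samples. Over the 16309 probes with complete values, 356 were higher (2.18%) and 400 lower (2.45%) in all 9. The ranges did not overlap for 63 probes higher (0.386%) and 100 lower (0.613%) in conditioned tissue. The shares to be met without any difference were not computed, so these counts are not read as a separation of the tissues.

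The conditioned mean lay nearer to IR than the NonIschemic mean did in 14 of these 18 probes, and further from it in 4, Mm::M200014539 among them. The median absolute ratio over IR was 0.090 in conditioned tissue and 0.50 in NonIschemic tissue. Across all 16309 complete probes the same medians were 0.034 and 0.055, where a mean of 9 values is set beside a mean of 3. Conditioned tissue lay on the same side of IR as NonIschemic tissue in 8 of the 18 and on the other side in 10. The 18 were chosen by the difference between the conditioned mean of 9 and the NonIschemic mean of 3. That choice favours a NonIschemic mean far from IR, so nothing is read from these positions.

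A difference of 1.5-fold or more was reached by 35 probes (0.213%), of which 31 were higher and 4 lower in conditioned tissue. Of these 35, 32 had an unadjusted p under 0.05 and 11 an adjusted p under 0.1. Their replicates were uneven: the median SE was 0.21, against 0.067 over all probes. The difference was largest in number 2 for 17 of the 35. The same count over all probes was not made, so nothing is read from it. Over all complete probes the pooled differences had an SD of 0.167 in number 2, against 0.157 in number 1 and 0.153 in number 3. NonIschemic replicate 2 also had the widest spread of ratios over probes, with an SD of 0.209, against 0.130 in NonIschemic replicates 1 and 3.

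The largest difference of all, 1.52 (SE 0.51, adjusted p = 0.413 with limma), came from 1 of the 12 mouse probes printed on 17 spots each. Its ratios over IR were -1.90, -1.27 and -2.18 in PreC, 0.10, -2.43 and 1.61 in PostC, and -0.31, -1.41 and 1.26 in Post30. NonIschemic tissue gave -1.02, -3.87 and -1.84. In PreC replicates 1 and 3 it was lower than in NonIschemic tissue of the same number, and in the other 7 it was higher. None of the 12 probes passed.

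Preconditioned tissue was compared with remote tissue first. With limma 0 probes passed (smallest adjusted p = 0.0861), and 1611 (9.79%) had an unadjusted p under 0.05, 875 higher (5.32%) and 736 lower (4.47%) in PreC. The 95% interval reached a median of 0.18 to either side. Leaving out PreC replicate 3 gave 19 probes, leaving out NonIschemic replicate 3 gave 9, and leaving out PostC replicate 1 gave 1.

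After postconditioning at 1 min, 2 probes passed (0.0122%), 1 higher and 1 lower in PostC, 4 had an adjusted p under 0.1 (0.0243%), and 1441 (8.76%) had an unadjusted p under 0.05, 709 higher (4.31%) and 732 lower (4.45%). The lower one was above empty spots on 0 of 6 PostC arrays and on 6 of 6 NonIschemic arrays. PostC therefore has only a bound there, which lay 1.46-fold below the measured NonIschemic level, without the error of that level. The adjusted p of 0.0291 with limma belongs to the measured PostC values and not to this bound. The PostC ratios of this probe over IR were -1.11, -0.65 and -1.19, against -0.18, 0.39 and -0.46 in NonIschemic tissue, without overlap.

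The probe that was higher in PostC had ratios over IR of 0.19, -0.21 and 0.34, against -0.25, -0.75 and -0.35 in NonIschemic tissue, a difference of 0.56 (SE 0.079, adjusted p = 0.0400 with limma). In PreC and Post30 it lay above NonIschemic tissue too, by 0.27 and 0.26, where it did not pass. The count of 2 was not firm. It was 0 without PreC replicate 1, PostC replicate 1 or 3, Post30 replicate 1, or NonIschemic replicate 1 or 2. It was 1 without Post30 replicate 2 or 3. It was 24, 16, 21 and 7 without PreC replicate 2, PreC replicate 3, PostC replicate 2 and NonIschemic replicate 3.

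Post30, conditioned latest, gave the most calls against remote tissue: 9 probes (0.0547%), 3 higher (0.0182%) and 6 lower (0.0365%). At an unadjusted p under 0.05 it gave the fewest of the protocols, 1066 (6.48%), 563 higher (3.42%) and 503 lower (3.06%). Whether Post30 differs from the other protocols in its number of calls was not tested. The 9 absolute differences ran from 0.52 to 1.80 with a median of 0.91, the largest at a probe detected on 2 of 6 NonIschemic arrays. All 9 lay in the brightest of 4 equal bins of probes.

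Mm::M200004830 was first in order of p. The second probe, lower in Post30 by -0.73 (SE 0.088, adjusted p = 0.00594 with limma), had ratios over IR of -0.95, -1.22 and -1.08, against -0.19, -0.75 and -0.12 in NonIschemic tissue. Those groups did not overlap, and PreC and PostC differed from NonIschemic tissue by 0.11 and -0.20 at this probe. The third was higher by 1.80 (SE 0.25, adjusted p = 0.0217 with limma), with ratios of 1.32, 0.47 and 1.69 in Post30, against -0.74, -0.77 and -0.41 in NonIschemic tissue. It was above empty spots on 6 of 6 Post30 arrays and on only 2 of 6 NonIschemic arrays, so its NonIschemic level is measured in part.

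The fourth, higher by 0.84, gave 0.51, -0.22 and 0.15 in Post30, against -0.44, -0.92 and -0.70 in NonIschemic tissue. The fifth, lower by -0.91, gave -0.33, -0.45 and -0.98, against 0.25, 0.33 and 0.38. The sixth, lower by -1.04, gave -0.94, -1.24 and -1.51, against -0.19, -0.29 and -0.09. In each of these 3 the Post30 and NonIschemic ranges were apart.

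The seventh and eighth were lower by -0.52 and -0.70, and the ninth was higher by 1.44 (adjusted p = 0.0346 with limma). The ninth gave 0.35, -1.17 and -0.01 in Post30, against -0.78, -2.66 and -1.72 in NonIschemic tissue, so its ranges overlapped. The fourth to the eighth shared an adjusted p of 0.0217 with the third.

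IR tissue without conditioning is placed beside these values as minus the NonIschemic ratio, from the same 3 NonIschemic samples. It lay above NonIschemic tissue by 0.35 at the second probe, by 0.19 at the sixth and by 1.72 at the ninth, and below it by -0.67 at Mm::M200004830. PreC, PostC, Post30 and IR share these NonIschemic samples, and the 9 probes were chosen by Post30, so nothing is read from how their directions or sizes compare.

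**Figure D3:**
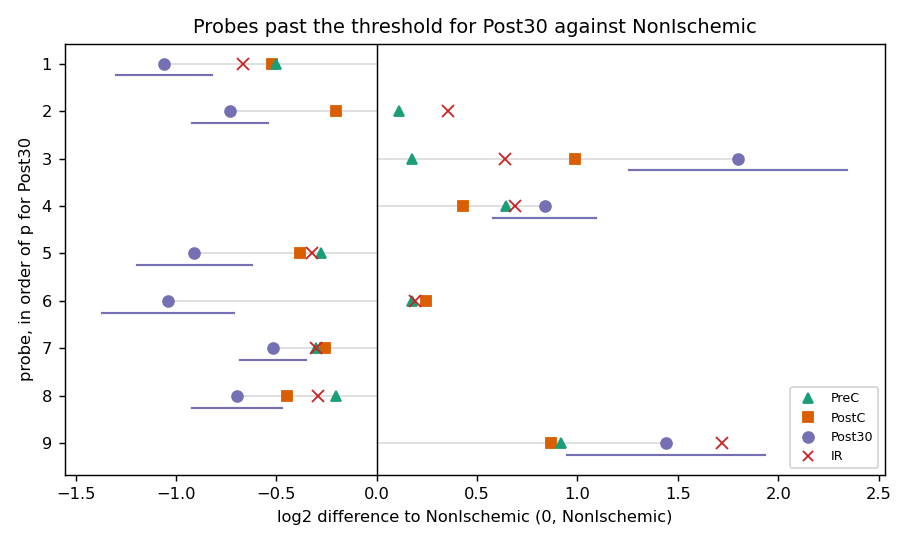
Log2 difference to NonIschemic tissue (horizontal axis) of the 9 probes past the threshold for Post30, in order of p (vertical axis). Symbols are PreC, PostC, Post30 and IR without conditioning, and the bar under each Post30 symbol is its 95% interval. Post30 lies furthest from 0 among the protocols in all 9 rows, which the choice of probes by Post30 favours.

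Whether the protocols differed from each other was tested in the same fit. With the limma F-test 3 probes passed (0.0182%), 22 had an adjusted p under 0.1 (0.134%), and 1552 (9.43%) had an unadjusted p under 0.05. Of the 9 Post30 probes, 2 were among the 3: the second and the sixth, both with an adjusted p of 0.00632. At the sixth, PreC and PostC lay above NonIschemic tissue by 0.17 and 0.25, and Post30 lay below it by -1.04. The last of the 3 (adjusted p = 0.0475 with the limma F-test) was not among the 9 Post30 probes. It lay at -0.10 in PreC, 0.31 in PostC and -0.36 in Post30 relative to NonIschemic tissue. No protocol passed against NonIschemic tissue at that probe. For the other 7 Post30 probes a difference between protocols was not shown. The count of 3 was 0 without Post30 replicate 1 or 3 and 1 without Post30 replicate 2. It was 5, 45 and 8 without NonIschemic replicates 1, 2 and 3, 6 without PreC replicate 2 or 3, and 2 to 4 without any other replicate.

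The counts moved with single replicates. Over the protocols together, the 1 call was lost without Post30 replicate 1 or 3 or NonIschemic replicate 1 or 2. It became 14, 43 and 17 calls without PreC replicate 2, PreC replicate 3 and PostC replicate 2. Without PostC replicate 3 or Post30 replicate 2 it became 3, and without NonIschemic replicate 3 it became 7, none of them the probe that passed with all samples.

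For Post30 the count fell to 1 without Post30 replicate 1 or 3, to 5 without its replicate 2, and to 4 and 2 without NonIschemic replicates 1 and 2. Without NonIschemic replicate 3 it was 8, of which only 3 were among the 9. Leaving out PreC replicate 2 gave 41, PreC replicate 3 gave 23, PostC replicate 2 gave 16 and PostC replicate 3 gave 17. With each number reduced to 1 value, so that 3 differences were tested against 0, 51 probes passed over the protocols together (43 higher, 8 lower in conditioned tissue) and 62 for Post30 (40 higher, 22 lower). These held the 1 pooled call and the 9 Post30 calls.

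**Figure D4:**
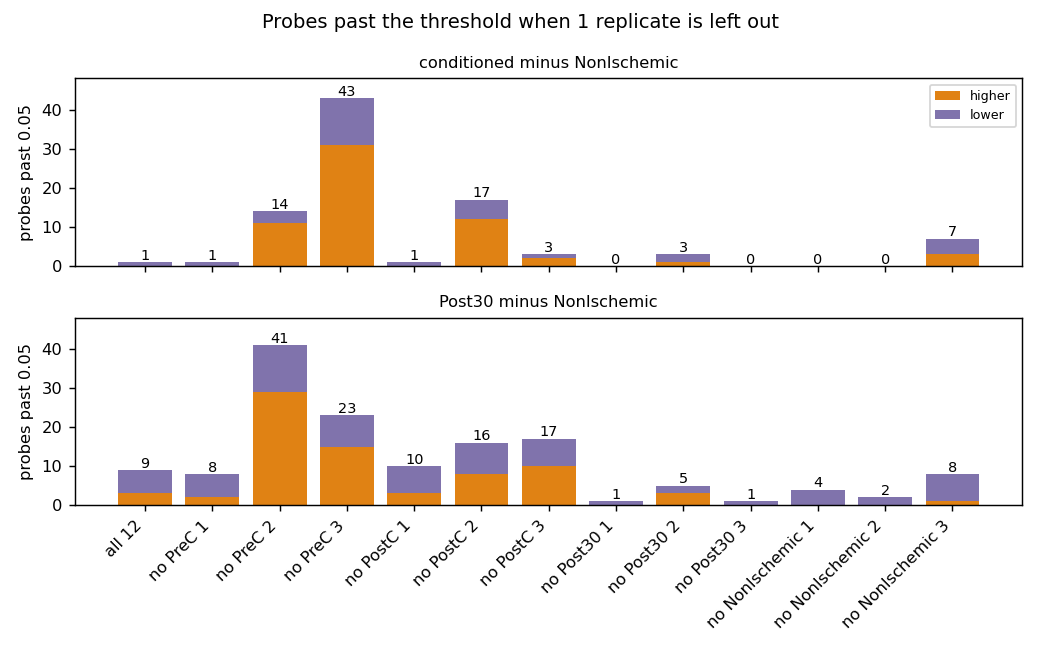
Probes with an adjusted p under 0.05 (vertical axis) with all 12 replicates and with 1 left out (horizontal axis), for conditioned minus NonIschemic (top) and Post30 minus NonIschemic (bottom). Bars are split into probes higher and lower in conditioned tissue. The counts run from 0 to 43 (top) and from 1 to 41 (bottom).

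Differences were set side by side between the replicate numbers, which share no group sample. Over 16309 probes, which are not independent replicates, the pooled differences of 2 numbers correlated with Pearson's r of 0.155, 0.129 and 0.119 (Spearman's rho 0.060, 0.066 and 0.033) for numbers 1 and 2, 1 and 3, and 2 and 3. The relation was strongest in bright probes: r was 0.286, 0.219 and 0.242 in the brightest of 4 equal bins. It was 0.181, 0.127 and 0.023 in the second brightest, and 0.0037, 0.054 and 0.046 in the third. In the dimmest it was 0.0031, 0.042 and 0.0022. Each pair shares the probe's sequence and spot position.

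The share of probes with an unadjusted p under 0.05 was 13.4% in the brightest bin, 8.46% and 7.37% in the next 2, and 4.62% in the dimmest. In the dimmest bin 0 of 4114 tested probes were detected on most arrays of a side, and in the brightest all 4115 were. Between arrays with the group in Cy5 and in Cy3, which carry the same extracts, r was 0.383 over all probes and 0.819 in the brightest bin.

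Control probes 1DR to 6DR, which are no mouse probes, moved with the groups. Their log2 ratio over IR was -0.04 ± 0.18 in PreC, 0.75 ± 0.05 in PostC and 0.62 ± 0.10 in Post30, against 0.06 ± 0.38 in NonIschemic tissue (SD, n = 3). Their part in the results above was not tested. Scaled to these controls, all probes shift together, and the median pooled difference becomes -0.38 on the log2 scale. By protocol the median becomes 0.10 in PreC, -0.69 in PostC and -0.56 in Post30. Under that shift the differences were -1.08 for Mm::M200004830, -1.72 for Mm::M200014539, 0.71 for Mm::M200000449 and 0.54 for Mm::M200004035. A common shift of this size could not reverse any of the 4, so nothing is read from their directions there.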

How the data were processed

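Per the file headers, the deposited array files hold foreground and local background intensity of 2 channels and a quality mark per spot. The sources used here do not give the image software. The authors' deposited value table holds log2 ratios. It matched the sign-turned log2 ratio without background subtraction after loess (r at least 0.99997 per array, column medians -0.013 to 0.0083), with method and software unstated. Per the labels' protocols RNA was amplified and labelled in both dyes.

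Background was corrected here with normexp and arrays were normalized by loess in limma 3.58.1 (R 4.3.3). The offset of 50 was scaled to 1.03, as intensities reached 1356 and not 65535. Array medians were 1.29 to 4.26, and the number of arrays limits the precision. Spots of a probe were averaged, 2 to 25 marked spots per array and 1009 control or empty spots were left out, and a probe marked in 1 dye orientation had no value for that replicate. A probe counted as detected above the 95th percentile of 481 empty spots.

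Groups were fitted with limma (lmFit, eBayes) with a fixed block for the replicate number (6 residual degrees of freedom). Each contrast was a coefficient, which keeps its standard error exact where values are missing. This replaced limma's approximate standard errors after their counts had been seen (7, 0, 3, 10 and 4 probes for the pooled, PreC, PostC and Post30 comparisons and the difference among protocols, against 1, 0, 2, 9 and 3). Benjamini-Hochberg adjustment ran over 16454 probes at 0.05. The block follows from subtracting within numbers; the labels give the numbers, and the data pair them in part. The fit was tested on simulated data.

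Probes named are the 2 highest and 2 lowest past 0.05 with 1 sign in all 9 differences, filled up by the smallest p. No gene list or marker list could be tested, since probes have no gene names, and no probe sequence was used here. The probes, tests, alternatives and the scaled offset were chosen with earlier results of these data known.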

Additional observations from a re-analysis of the deposited data

Results flagged for a closer look

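The difference to remote tissue depended on the protocol for 3 probes, by the limma F-test in the same fit (adjusted p = 0.00632, 0.00632 and 0.0475). The test was over PreC, PostC and Post30, which share the NonIschemic samples.

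The control probes 1DR to 6DR were used only in the alternative that scales to them. They stood higher over IR in all 3 PostC and all 3 Post30 replicates than in any NonIschemic replicate. PostC averaged 0.75 and Post30 0.62 on the log2 scale, against a NonIschemic mean of 0.06. Within the same number they lay above NonIschemic tissue by 0.31 to 0.93 in PostC and by 0.11 to 0.93 in Post30. The files do not say what these probes are or when their RNA was added.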

How the results depend on the processing

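As reported, 1, 0, 2, 9 and 3 probes passed for all conditioning, PreC, PostC and Post30 against NonIschemic tissue and for the difference among protocols, and counts below keep this order. Without the replicate block they were 0, 0, 0, 0 and 0 (unadjusted p under 0.05 for 992 in the first), and the same 0 throughout with a random replicate block (1194), so the block changed each call but that of PreC. Plain subtraction (901) and an offset of 50 (1240) also gave 0 throughout. Without background subtraction they were 0, 0, 3, 1 and 3, as in the authors' values, and the 3 in PostC were all lower and included 0 of the 2 reported. Median centring gave 5 (1 higher, 4 lower), 0, 0, 11 and 2. The group's channel alone gave 1 other probe, then 0, 0, 2 and 7. Detected probes alone gave 0, 1, 2, 8 and 7, and marked spots kept gave 0, 0, 1, 8 and 2. Array weights gave 0, 0, 0, 8 and 22. The 3 within-number differences gave 51, 2, 3 and 62. With the group in Cy5 the counts were 0, 0, 0, 1 and 0, and in Cy3 they were 0, 0, 0, 5 and 2. An adjusted p under 0.1 gave 18, 1, 4, 35 and 22. The cause of these moves was not tested, except that the threshold of 0.1 is wider by construction.

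Leaving out replicates or a whole number gave 0 to 43, 0 to 19, 0 to 48, 1 to 41 and 0 to 45. Without replicate number 2 in every group they were 17, 1, 48, 18 and 11, and without number 3 the 2 for Post30 included 0 of the 9. Limma's approximate standard errors, used first and replaced by exact ones after their counts were seen, gave 7, 0, 3, 10 and 4. Other alternatives added after seeing the data were at most 1 missing value per group (no change), PreC and PostC without Post30 (1 other probe), and scaling to the control probes 1DR to 6DR (13729, 36, 16293, 15902 and 16408), which shifts all probes alike. No alternative reversed 1 of the 4 named probes, which the scaling to control probes could not do given the size of its shift. Their sizes depended on the offset and on the background correction. With the offset of 50 the difference was -0.14 for Mm::M200004830 (as reported, -0.69) and -0.23 for Mm::M200014539 (-1.33). It was 0.56 for Mm::M200000449 (1.10) and 0.35 for Mm::M200004035 (0.92). With plain subtraction the sizes were larger than reported. They were -0.86 for Mm::M200004830, -1.77 for Mm::M200014539, 1.11 for Mm::M200000449 and 0.97 for Mm::M200004035. Dim probes limit what can be seen, since 6349 of 16463 were detected on most arrays of a side.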
